A study of Homo sapiens with 6 samples.

Results

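The tripartite motif (TRIM) genes are a large family of ubiquitin ligases, and their transcripts were followed here in T24, an established human bladder cancer cell line, with and without overexpression of the ubiquitin ligase RNF112. Members were chosen by symbol: every gene of the count table named TRIM followed by a number and at most 1 letter, which gave 58 of 23152 genes. The naming rule used no measured value, though earlier results of these data were known when it was chosen. In the series, 3 samples carried an empty vector (vector) and 3 overexpressed RNF112 (oeRNF112), all in T24 cells grown in RPMI medium with fetal bovine serum and antibiotics. The study's methods describe plasmid transfection of T24 cells and, separately, a lentiviral T24 line for work in mice. Which of these was sequenced is not stated, and the protocol deposited with the samples speaks of siRNA. Neither source says that the replicates were separate cultures, so the p-values below measure the spread between these samples, which may be technical.

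A typical TRIM protein carries a RING domain, which recruits a ubiquitin-conjugating enzyme (E2), then B-box zinc fingers and a coiled coil through which the proteins pair. The C-terminal part differs between subclasses and recognizes the substrate or the cell structure to which the protein binds. The family is best known for restricting viruses and for tuning interferon and NF-kB signaling, while other members act on microtubules, in striated muscle or as transcriptional cofactors. Because RNF112 is itself a RING ligase, the comparison asks whether transcripts of this other ligase family differed when RNF112 was raised.

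Total counts ranged from 40029547 to 41259569 reads per sample, so a count of 0 allows up to 3 reads, or at most 0.0749 CPM (the count scaled to a common library size), for counting error only. RNF112 was counted 27, 19 and 24 times with vector and 29753, 36963 and 31712 times with oeRNF112, which may include reads of the introduced construct. Of the markers of the labelled cell type, KRT7, KRT8 and KRT18 were abundant, while the epithelial gene CDH1 had at most 1 count. Of the urothelial genes, GATA3 had 117 to 173 counts per sample and UPK1A 4 to 20, and neither was called. UPK2 and UPK3A had at most 7 and 1. The summed level of 5 leukocyte markers was between 9.43 and 10.8 CPM with vector and between 5.35 and 7.84 CPM with oeRNF112, and that of 3 endothelial markers was at most 0.525 CPM in either group. Of the 4 leukocyte markers tested 0 were higher and 1 lower, and the T cell marker CD3E was at 0 in all but 1 sample. Of the 5 epithelial markers tested, EPCAM was higher by 0.84 on the log2 scale (edgeR adjusted p = 0.0208) and KRT7 and KRT18 fell by 0.48 and 0.51 (0.0226 and 0.013). Of the 3 mesenchymal markers, CDH2 fell by 0.44 (edgeR adjusted p = 0.0252) and the others were not called. The part of these shifts in the results was not tested.

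Of the 58 members, 42 passed the filter on low counts and were tested, and 16 did not. In RPKM, reads scaled by gene length and library size so that levels of different genes can be compared, the 42 spanned from a mean of 0.0740 for TRIM9 to 112 for TRIM8. Their median was 5.55 RPKM, against 5.37 RPKM for all genes tested. TRIM8, TRIM28 and TRIM25 together held 47.4% of the summed RPKM of the family. TRIM8, a ligase that acts in TNF and cytokine signaling, stood at 110.9 ± 5.72 RPKM with vector and 113 ± 5.69 with oeRNF112 (SD, n = 3 each). TRIM28, the corepressor of KRAB zinc finger proteins also called KAP1, followed at 75.4 ± 7.21 and 67.2 ± 1.88 RPKM. TRIM25, which ubiquitinates the RNA sensor RIG-I, stood at 38.1 ± 4.07 and 40.7 ± 2.61 RPKM. The next pair, TRIM27 (20.9 ± 1.35 with vector) and TRIM21, the cytosolic antibody receptor (20.4 ± 1.11), did not differ from each other beyond their spread. In all, 13 members reached 10 RPKM or more, 38 reached 1 RPKM, and 4 (TRIM66, TRIM46, TRIM73 and TRIM9) lay below it.

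**Figure D1:**
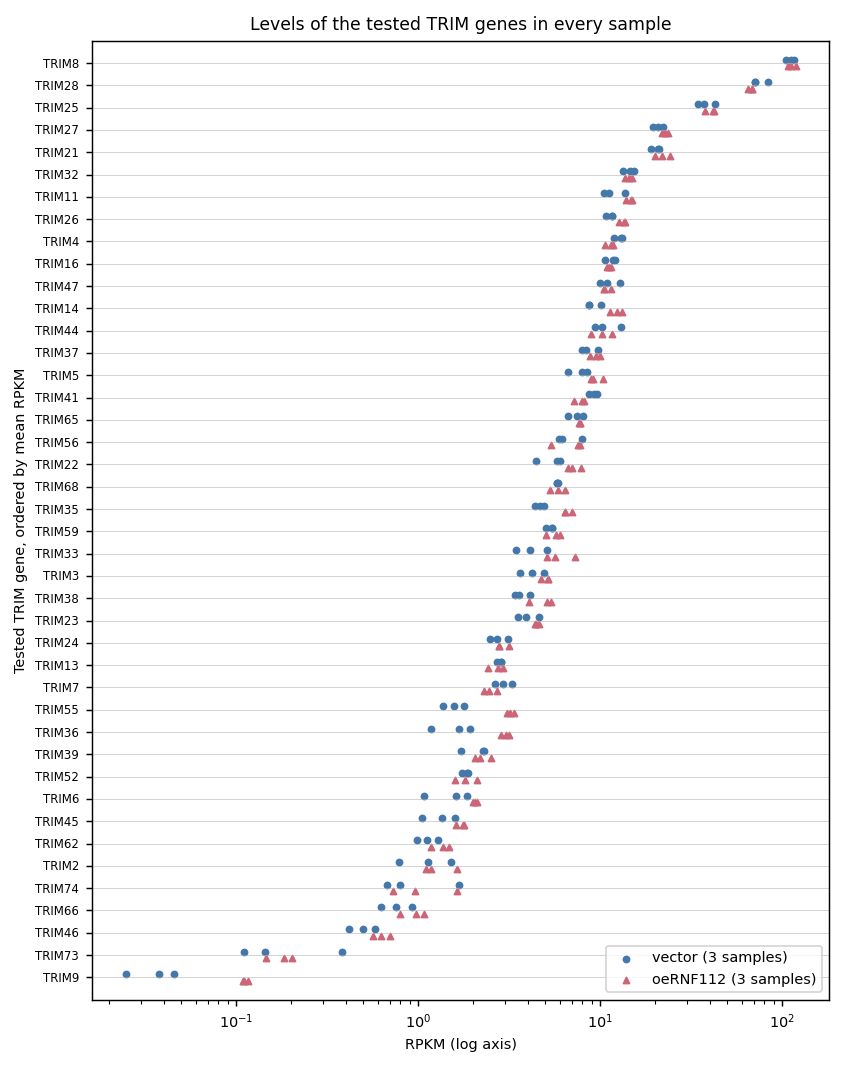
Level of each of the 42 tested TRIM genes in every sample, in RPKM on a log axis, with circles for the 3 vector samples and triangles for the 3 oeRNF112 samples. TRIM8 lies highest, near 112 RPKM, and TRIM9 lowest, at 0.0740 RPKM on average.

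No sample held more than 10 counts for any of the 16 untested members, and 10 of these never exceeded 3. They include TRIM63 (MURF1, the ligase of muscle wasting), with 0, 1 and 1 counts against 1, 2 and 0, the muscle membrane repair gene TRIM72, and TRIM43, TRIM43B, TRIM49 and TRIM50. TRIM71, the NHL-domain ligase of embryonic stem cells, had 0, 0 and 0 counts against 1, 1 and 0. TRIM29, a RING-less member known from squamous epithelium, had 5, 1 and 0 counts against 2, 2 and 3, and TRIM31 had 5, 2 and 3 against 1, 2 and 1. The others were TRIM10, TRIM17, TRIM34, TRIM40, TRIM58, TRIM67 and TRIM69. At this depth these genes were at or near the floor in both groups, and no difference was detectable.

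Of the tested members, 5 were higher and 1 was lower with oeRNF112 (edgeR quasi-likelihood test, adjusted p under 0.05 over all genes tested). TRIM9, TRIM55, TRIM36, TRIM35 and TRIM14 rose and TRIM41 fell. The calls amount to 14.3% of the 42 tested members, against 18.1% of all genes tested, of which 9.97% were higher and 8.14% lower. Fitted values were above 0 for 24 members and below 0 for 18. On the log2 scale the members' median was 0.02 (quartiles -0.09 and 0.24), and that of all genes tested was 0.0027 (quartiles -0.20 and 0.24). Without vector replicate 2, 7 members were called higher and 3 lower, and without vector replicate 1 or oeRNF112 replicate 1 these numbers were 3 and 0. Calls over all genes moved too, from 2620 of 14467 with all samples to 3387 of 14740 without vector replicate 2. They were 1061 of 14768 without vector replicate 1 and 1263 of 14701 without oeRNF112 replicate 1. When the libraries were scaled by their totals alone, 75.4% of all calls were higher instead of 55.0%, and the TRIM calls were 5 higher and 0 lower.

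**Figure D2:**
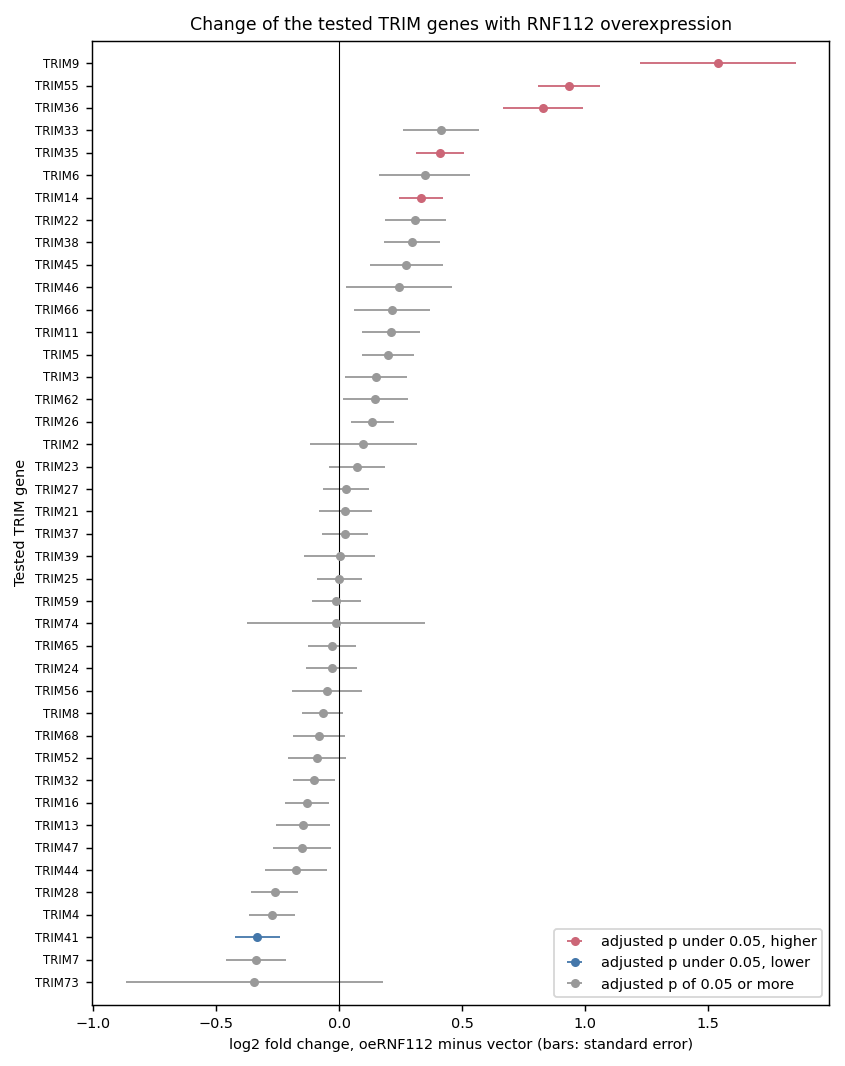
Log2 fold change (oeRNF112 minus vector) of the 42 tested TRIM genes with standard errors, colored by the edgeR call at an adjusted p under 0.05. TRIM55, TRIM36, TRIM35, TRIM14 and TRIM9 are called higher, TRIM9 the farthest out at 1.54, and TRIM41 is called lower at -0.33, while 36 are not called.

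The largest fitted rises were those of TRIM9, TRIM55 and TRIM36. TRIM55 (MURF2; chromosome 8, 66113351 to 66175485, GRCh38), a muscle RING-finger protein that links microtubules to the forming sarcomere, had 239, 307 and 270 counts with vector and 523, 577 and 548 with oeRNF112. Every oeRNF112 sample lay far above every vector sample. In edgeR's test this was a log2 fold change of 0.93 ± 0.126 (standard error) at an adjusted p of 0.00138, or 191% of the vector level. TRIM36 (chromosome 5, 115124772 to 115180294), a microtubule-associated ligase linked to the cell cycle, was counted 354, 397 and 241 times with vector and 582, 625 and 653 times with oeRNF112. Its groups did not overlap either, and the 3 vector samples were spread more widely (coefficient of variation 22.8%) than the oeRNF112 samples (4.98%). In the same edgeR fit it changed by 0.83 ± 0.162 (log2, standard error), with an adjusted p of 0.00788.

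TRIM9 (chromosome 14, 50975266 to 51095105), a brain-enriched ligase that shapes axon branching, rose from 10, 15 and 18 counts to 43, 44 and 46. The groups were well apart at a very low level, a mean of 0.036 RPKM with vector and 0.112 with oeRNF112. Its log2 fold change was 1.54 (standard error 0.316, edgeR adjusted p = 0.00995), and it was the only tested member with a change of at least 1 in size. The annotation places an antisense gene over part of TRIM9, and whether counting used the strand is not given in the sources used here. TRIM55 and TRIM36 kept an adjusted p under 0.05 in 15 of 15 alternative analyses and TRIM9 in 13 of 14.

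TRIM9 and TRIM36 belong to the subclass with a COS box, a short motif that targets microtubules, as do TRIM46 and TRIM67 and the family proteins MID1 and MID2, whose symbols fall outside the naming pattern. TRIM46, which bundles microtubules at the start of the axon, had 83, 59 and 70 counts against 87, 99 and 79, a log2 fold change of 0.24 (95% interval -0.24 to 0.72), and was not called. TRIM67 had at most 1 count. MID2 rose, from 636, 674 and 430 counts to 1061, 824 and 1128 (log2 fold change 0.71, standard error 0.167, edgeR adjusted p = 0.0174). MID1, the Opitz syndrome ligase that controls phosphatase 2A, was at 1528, 1844 and 1439 counts against 1701, 1409 and 2042, with overlapping groups and a log2 fold change of 0.02 (95% interval -0.28 to 0.32). The MURF class, to which TRIM55 belongs, also carries a COS box. Over both classes and MID1 and MID2, a grouping made after the values had been seen, 4 of 6 tested genes were called higher and 0 lower, where 9.97% of all genes tested were higher. As the grouping followed the values, its count supports nothing. MID2 lost its call without vector replicate 1 (adjusted p = 0.0544 from edgeR's test), oeRNF112 replicate 1 (0.0692) or oeRNF112 replicate 3 (0.0542).

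TRIM35 and TRIM14 rose by smaller amounts. TRIM35 (chromosome 8, 27284886 to 27311272), a PRY-SPRY ligase studied in innate signaling, had 831, 860 and 759 counts with vector and 1100, 1228 and 1108 with oeRNF112. The groups were separate, with a log2 fold change of 0.41 (standard error 0.0977, edgeR adjusted p = 0.0187). TRIM14 (chromosome 9, 98035797 to 98119222), a RING-less adaptor that works with MAVS at mitochondria in antiviral signaling, had 3655, 4158 and 3577 counts against 5036, 4683 and 5432. Again all oeRNF112 samples were higher, at 126% of the vector level (log2 fold change 0.33, standard error 0.0895, edgeR adjusted p = 0.0306). TRIM14 overlaps NANS on the opposite strand over 13801 bases of the annotation. Both calls were lost without vector replicate 1 (adjusted p = 0.0697 for TRIM35 and 0.129 for TRIM14) and without oeRNF112 replicate 1 (0.0597 and 0.108). The call of TRIM35 was also lost without oeRNF112 replicate 2 (0.0524), and that of TRIM14 without vector replicate 3 (0.0698) or oeRNF112 replicate 3 (0.113).

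TRIM41 (chromosome 5, 181223281 to 181235808), a PRY-SPRY ligase reported to target viral nucleoproteins, was the single member called lower. It was counted 1309, 1370 and 1422 times with vector and 1199, 1071 and 1178 times with oeRNF112, so the groups did not overlap. Its log2 fold change was -0.33 (standard error 0.0931, edgeR adjusted p = 0.0351), or 79.5% of the vector level. An antisense gene overlaps TRIM41 over 6040 bases of the annotation, with the strand setting of the counting not given. This call was held in 4 of 15 alternatives, with adjusted p-values from 0.0151 to 0.194, and was lost with library totals (0.111) and in every fit that left out a sample other than vector replicate 2. TRIM7, a ligase of glycogen metabolism whose gene lies next to TRIM41 on chromosome 5, had 980, 870 and 1080 counts against 803, 892 and 756. After scaling its groups were apart by a narrow margin (at least 21.75 CPM with vector, at most 21.70 with oeRNF112). TRIM7 had a similar log2 fold change of -0.34 (standard error 0.121). The adjusted p was 0.0808 from edgeR's test, or 0.0271 without vector replicate 2. The third gene of this group, TRIM52, lay at 580, 610 and 604 counts against 676, 522 and 587 and was not called.

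**Figure D3:**
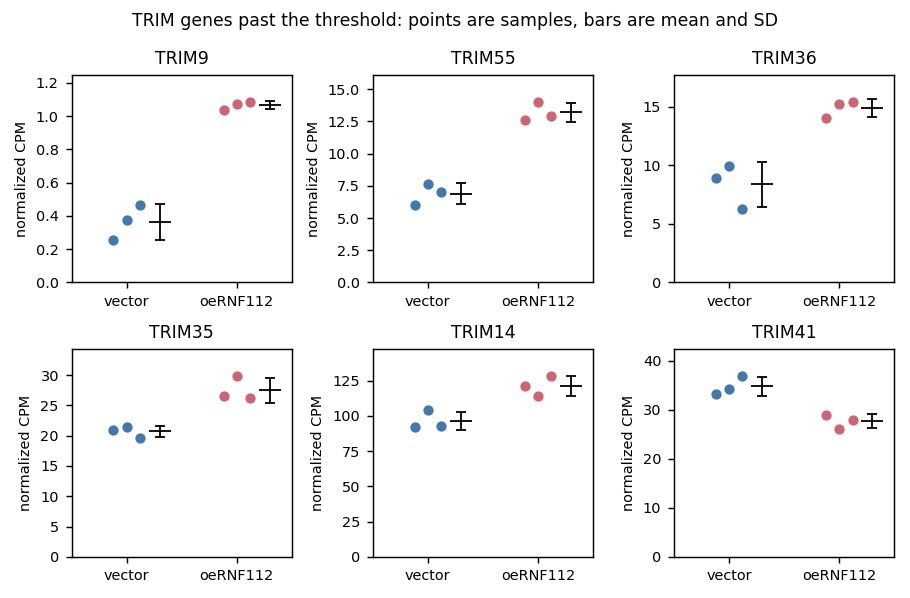
Normalized CPM of the 6 TRIM genes past the threshold in every sample (points), with the mean and SD of each group of 3. In every panel the oeRNF112 and vector points do not overlap, and the oeRNF112 points are lower in TRIM41 alone.

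The values of both groups did not overlap for 13 of the 42 members (31.0%, against 36.8% of all genes tested), 9 higher and 4 lower. Among the 7 of these that were not called were the restriction factors TRIM5 and TRIM22, then TRIM6 and TRIM26 on the higher side, and TRIM28, TRIM4 and TRIM7 on the lower side. TRIM28 was counted 10196, 10080 and 11755 times with vector and 9546, 9597 and 9139 times with oeRNF112. Its log2 fold change of -0.26 (standard error 0.0958) had an adjusted p of 0.0867 from edgeR's test. Without vector replicate 2 it was called (adjusted p = 0.0453, edgeR), and without vector replicate 3 it stood at -0.17 (0.222). TRIM4, a ligase of RIG-I, was at 1857, 1797 and 1633 counts against 1551, 1616 and 1454, or 82.8% of the vector level (adjusted p = 0.0696, same test).

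TRIM28 belongs with TRIM24 and TRIM33 to the subclass with a PHD finger and a bromodomain, which reads chromatin. None of the 3 was called by edgeR or by DESeq2, and 2 had an unadjusted p under 0.05 in each. TRIM33, which modulates TGF-beta signaling through SMAD4, had 1682, 2058 and 1380 counts against 2244, 2047 and 2913. Samples of its groups overlapped at vector replicate 2 and oeRNF112 replicate 2, and the log2 fold change of 0.41 (standard error 0.154) had an adjusted p of 0.0904 from edgeR's test. Without vector replicate 2 it was called (adjusted p = 0.0145, edgeR), while without oeRNF112 replicate 3 the log2 fold change was 0.27 (0.298) and without vector replicate 3 it was 0.30 (0.223). TRIM24, a coactivator and p53 ligase, was at 997, 1117 and 891 counts against 986, 999 and 1126, with a 95% interval of the log2 fold change from -0.26 to 0.20. Of 8 genes that act with TRIM28 in repression, 0 were called higher and 2 lower, against 9.97% and 8.14% of all genes tested. CHD3, a helicase of the NuRD complex, fell by 0.58 (log2, standard error 0.107, edgeR adjusted p = 0.00602). CBX5, the heterochromatin protein HP1 alpha, fell by 0.55 (edgeR adjusted p = 0.0151). This call was kept in 9 of 15 alternatives, with adjusted p-values up to 0.0831. The fits that lost it include those without vector replicate 1 (0.062) or oeRNF112 replicate 1 (0.0586). SETDB1, the methyltransferase that TRIM28 recruits, stood at -0.12 and was not called.

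Calls in the remaining subclasses are given beside a share of 18.1% called over all genes tested. In a subclass of a few genes, 0 calls cannot be told from that share. Of the 18 tested PRY-SPRY members, 1 rose and 1 fell (TRIM35 and TRIM41), with a median log2 fold change of 0.03. The 5 tested members without a C-terminal domain had 0 calls and a median of -0.07. TRIM8, the most abundant of them, had 11920, 12523 and 12903 counts against 13170, 12091 and 12442. Its 95% interval was from -0.25 to 0.12 on the log2 scale. The 3 tested NHL members, TRIM2, TRIM3 and TRIM32, which include RNA-binding and neuronal ligases, had log2 fold changes of 0.10, 0.15 and -0.10, with 0 called. In both of these subclasses 0 genes had an unadjusted p under 0.05, and DESeq2 called 0. TRIM32, the ligase of a limb-girdle muscular dystrophy, was the steadiest of these at 2343, 2403 and 2095 counts against 2240, 2143 and 2350. The single members of the MATH, ARF and filamin classes (TRIM37, TRIM23 and TRIM45) and the membrane-anchored TRIM13 and TRIM59 were not called, and of the 4 tested members without a RING domain, TRIM14 alone was.

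In all, 12 members are known to be induced by interferon in many cells. Of these, 9 were tested, and 2, TRIM35 and TRIM14, were called higher and 0 lower, with 4 at an unadjusted p under 0.05. Over all genes tested 9.97% were called higher and 18.1% in either direction. Without vector replicate 1 or oeRNF112 replicate 1 the calls were 0, with 3 at an unadjusted p under 0.05 in the first of these fits, and without vector replicate 2 they were 3. Of all genes tested, these fits called 702 of 14768, 832 of 14701 and 1841 of 14740 higher, in the same order. Their median log2 fold change was 0.20, and the highest was 0.41. In the same samples 20 of 24 tested interferon-stimulated genes outside the family were higher and 2 lower, with a median of 1.12. OAS1, an RNA sensor, stood at 1.60 and the antiviral GTPase MX2 at 2.37, while IRF1 fell by 0.78 and IFIT2 by 0.60. The 2 lists were written with earlier results of these samples known, and their difference was not tested.

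Within the interferon-inducible members, TRIM22 had 688, 708 and 521 counts with vector and 815, 776 and 920 with oeRNF112. The groups did not overlap, and the log2 fold change of 0.31 (standard error 0.126) had an adjusted p of 0.116 from edgeR's test. Without vector replicate 3 it was 0.20. TRIM5, which recognizes retroviral capsids, had 1468, 1538 and 1206 counts against 1630, 1618 and 1863, likewise separate, at 0.20 (standard error 0.106, adjusted p = 0.218), and at 0.12 without vector replicate 3. TRIM38, a regulator of TLR signaling, had 1432, 1614 and 1332 counts against 1972, 1604 and 2102, where oeRNF112 replicate 2 lay within the vector range (log2 fold change 0.29, edgeR adjusted p = 0.101, or 0.0497 without vector replicate 2 and 0.0373 without oeRNF112 replicate 2). TRIM26 was at 1575, 1677 and 1664 counts against 1797, 1941 and 1967, or 110% of the vector level (edgeR adjusted p = 0.312). Its groups were separate by a narrow margin (at most 43.1 CPM with vector, at least 43.4 with oeRNF112).

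TRIM25 and TRIM21, the interferon-inducible members with the highest RPKM, and TRIM56 had fitted changes near 0. TRIM25 was counted 8790, 9906 and 8026 times against 9619, 8774 and 9853, and its 95% interval was from -0.20 to 0.21 on the log2 scale. TRIM21 was counted 1673, 1495 and 1644 times against 1694, 1912 and 1569, with an interval from -0.22 to 0.27. For TRIM56, which acts with STING, the counts were 2795, 3521 and 2640 against 3328, 2395 and 3428, with oeRNF112 replicate 2 the lowest of all samples. The interval of TRIM56 was from -0.37 to 0.27. The upper end of each interval lies below the rise of OAS1, which is above the median of the reference genes (1.12). Reference genes called higher rose by as little as 0.34 (IFIT3, 95% interval 0.14 to 0.54), and each interval overlaps that of IFIT3. Of the 24 reference genes tested 20 were called higher and IRF1 and IFIT2 lower, while STAT2 (0.26) and OASL (-0.08) were not called. The intervals of TRIM21 and TRIM56 reach the value of STAT2, and those of TRIM25, TRIM21 and TRIM56 include that of OASL. TRIM31, TRIM34 and TRIM69 were not tested, with at most 5, 3 and 7 counts. PML, the nuclear body protein also known as TRIM19, had 3641, 3571 and 3724 counts against 4253, 4373 and 4401, a log2 fold change of 0.17 (standard error 0.0795, edgeR adjusted p = 0.163), and with library totals it was called higher (0.0384).

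**Figure D4:**
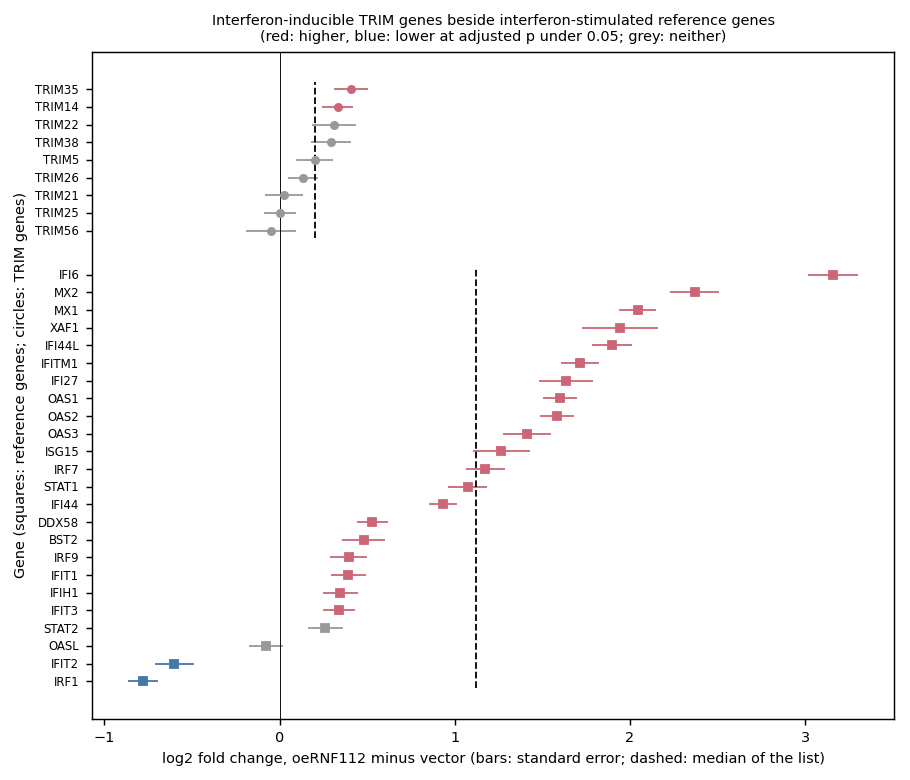
Log2 fold change (oeRNF112 minus vector) with standard errors of 9 tested interferon-inducible TRIM genes (circles) and 24 interferon-stimulated reference genes (squares), with the median of each list dashed and edgeR calls in color. The TRIM genes lie between -0.05 and 0.41 with a median of 0.20, and the reference genes between -0.78 and 3.16 with a median of 1.12.

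Promoter sequence was examined because interferon acts through the interferon-stimulated response element (ISRE). RefSeq windows of 300 bases, from 250 before to 50 after a gene's start (GRCh38.p14), were available for 44 members, and there was none for 14, TRIM22, TRIM28, TRIM35 and TRIM55 among them. The ISRE core was searched on both strands as a pair of GAAA separated by any 2 bases (on the other strand, a pair of TTTC), and overlapping matches were kept. It was found for 6 of the 10 interferon-inducible members with a window, against 4.38% of all genes with a window. Of the tested interferon-inducible members with a window 4 of 7 had it, against 4.03% of the genes tested that have one. Over the whole family 9 of 44 members with a window had it (20.5%), and 7 of 31 of the tested ones (22.6%). The matching stretches are printed beside each gene's call in oeRNF112, and differences between these genes were not tested. Each stretch reads 5′ to 3′ on the gene's strand, with the matching bases in capitals.

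TRIM14, called higher (chr9:98119209-98119278, minus strand): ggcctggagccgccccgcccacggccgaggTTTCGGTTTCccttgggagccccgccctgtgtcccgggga

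TRIM5, separate but not called (chr11:5685062-5685131, minus strand): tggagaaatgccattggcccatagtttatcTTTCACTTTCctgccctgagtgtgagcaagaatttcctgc

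TRIM26, separate but not called (chr6:30213555-30213630, minus strand, 2 overlapping matches): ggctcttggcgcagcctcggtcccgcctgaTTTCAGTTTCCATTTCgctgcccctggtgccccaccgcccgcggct

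TRIM21, not called (chr11:4393663-4393692, minus strand, 2 overlapping matches): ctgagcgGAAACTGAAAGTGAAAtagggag

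TRIM34, not tested (chr11:5624881-5624950, plus strand): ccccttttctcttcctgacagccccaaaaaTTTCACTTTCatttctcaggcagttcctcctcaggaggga

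TRIM69, not tested (chr15:44736436-44736505, plus strand): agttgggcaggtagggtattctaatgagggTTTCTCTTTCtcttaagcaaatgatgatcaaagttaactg

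The core thus stood before TRIM14, which rose, and within the first bases of TRIM21, which had nearly the same counts in both groups. TRIM34 and TRIM69 held it and were near 0 counts in all samples. Among the other members, TRIM2, TRIM16 and TRIM44 also had a match and were not called. Of the called members with a window, 1 of 4 had the core. The E-box CACGTG, to which MYC and related factors bind, was found for 3 of 31 tested members with a window (TRIM25, TRIM46 and TRIM66), or 9.68%, against 12.2% of all genes tested with a window. These are matches of letters in a fixed window and do not show binding.

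Several members lie side by side in the genome. On chromosome 11, TRIM6, TRIM34, TRIM5 and TRIM22 lie together between 5588635 and 5710863. TRIM6, which makes unanchored ubiquitin chains in interferon signaling, had 268, 228 and 152 counts against 282, 290 and 298, with separate groups, a log2 fold change of 0.35 (standard error 0.185) and an adjusted p of 0.22 from edgeR's test. Its fold change was 0.16 without vector replicate 3 and 0.54 without vector replicate 1. The 3 tested genes of this group had all samples of oeRNF112 above those of vector after scaling, as did 18.9% of all genes tested, and 0 were called. The annotation overlaps TRIM5 and TRIM22 on opposite strands over 47401 bases and TRIM6 with a readthrough gene, so that their reads may not be fully separate. On chromosome 6, 7 members lie between 25962802 and 30343729, of which TRIM38, TRIM27, TRIM26 and TRIM39 were tested and not called.

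Beyond the pattern, 2 of 4 tested family proteins with other symbols rose, MID2 and TRIML2, where 9.97% of all genes tested were higher. Without vector replicate 1, 0 of the 4 were called, where 1061 of 14768 genes tested in that fit were. TRIML2, a TRIM-like gene without a RING, had 2639, 2825 and 2973 counts with vector and 4034, 3986 and 4023 with oeRNF112. The groups were far apart and the log2 fold change was 0.43 (standard error 0.0862, edgeR adjusted p = 0.00859). Without vector replicate 1 its adjusted p was 0.0524. MEFV, the pyrin gene, had at most 15 counts.

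TRIM ligases depend on ubiquitin, on an activating enzyme (E1) and on E2 enzymes. Of 20 E1 and E2 genes tested, 2 were higher and 1 lower, around a middle value of 0.08 on the log2 scale, and this share of calls is near the 18.1% of all genes tested. UBE2D1, an E2 with which many TRIM proteins work, had 847, 775 and 824 counts against 952, 1301 and 1379 and rose by 0.49 (standard error 0.136, edgeR adjusted p = 0.0339). UBA6, one of the E1 enzymes, had 4470, 4825 and 3422 counts against 5789, 5371 and 6674 and rose by 0.41 (standard error 0.124, adjusted p = 0.0461, same test). UBE2E3 fell by 0.45, from 4241, 4011 and 4344 counts to 3337, 3342 and 3072 (standard error 0.0888, edgeR adjusted p = 0.00824). UBA1, the main E1, stood at -0.16 and was not called. Without vector replicate 1, 0 of the 20 were called by edgeR and 5 had an unadjusted p under 0.05, and without oeRNF112 replicate 3 there was 1 call. Of all genes tested, these fits called 1061 of 14768 and 1446 of 14689. With all samples DESeq2 also called 3. Of 4 ubiquitin precursor genes, RPS27A fell by 0.49 (standard error 0.147, edgeR adjusted p = 0.0439), from 44787, 34763 and 44625 counts to 30720, 36184 and 26370. Vector replicate 2 lay below oeRNF112 replicate 2, so its groups overlapped, and 6 of 15 alternatives kept the call. UBB, at -0.35, was not called (adjusted p = 0.0702).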

How the data were processed

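RNA of 3 vector and 3 oeRNF112 samples of T24 cells was sequenced from stranded mRNA libraries. What the authors deposited are raw read counts for each gene symbol and, in a second table, RPKM values. The submitters' processing notes name Trimmomatic 0.36, featureCounts, Subread 1.5.1 and GRCh38. The aligner, annotation and strand setting are not given in the sources used here. For 20637 of 20637 genes compared, both tables held the same measurement, with a single gene length to within 0.1%. Counts of every pair of samples differed by more than sampling noise.

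Counts were filtered and scaled in edgeR 4.0.16 (R 4.3.3; filterByExpr, TMM) and tested by its quasi-likelihood test with Benjamini-Hochberg adjustment over 14467 genes. Normalized CPM uses TMM-scaled totals. Intervals are at 95%. The same functions were tested on simulated data. All TRIM genes could be named, and from other lists the family proteins with other symbols, list extremes and up to 5 genes with the smallest p. SETDB1, UBA1, STAT2, OASL, IFIT2 and IFIT3 are exceptions, named with their values in view. The members and lists were chosen with earlier results of these data known. The results were recomputed with DESeq2 1.42.0, with its size factors or total counts for scaling, with other filters, with limma 3.58.1 on log2(RPKM + 1) or log2(RPKM + 0.1), with a replicate block, and with each sample left out in turn.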

Additional observations from a re-analysis of the deposited data

How the results depend on the processing

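TRIM55 and TRIM36 were called higher in all 15 alternatives. The number of TRIM genes called higher was 5 in most fits of all samples, and 4 with limma on log2(RPKM + 1), with or without a mean RPKM of at least 1, a filter that removes TRIM9. The number called lower went from 1 to 0 with library totals, without a filter on low counts, and in the 3 limma fits. The median log2 fold change of the tested members rose from 0.024 to 0.117 with library totals and to 0.105, 0.116 and 0.101 with limma (pseudocounts of 1 and 0.1, and a mean RPKM of at least 1), while the median of all genes rose from 0.0027 to 0.0962, 0.0582, 0.0925 and 0.0607. E1 and E2 genes called were 3, 5 with library totals and with limma on log2(RPKM + 1), and 4 in the other 2 limma fits. With the replicate number as a block, 3 TRIM genes were higher and 0 lower, 0 interferon-inducible members and 0 E1 and E2 genes were called, and 876 genes were called in all. Deviations from the group means were negatively correlated within each number (-0.181, -0.539 and -0.454), and no label states a pairing, so the replicate numbers were treated as names only.

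Leaving out each sample in turn gave 3 to 7 TRIM genes higher, 0 to 3 lower, a median of 0.026 to 0.106, 0 to 3 interferon-inducible members higher and 0 to 3 E1 and E2 genes called, with 1061 (without vector replicate 1) to 3387 (without vector replicate 2) genes called in all. Fitted values near 0 changed sign. TRIM8 was at 0.027 with library totals and in the limma fits (0.0266 and 0.0268). TRIM24 was at 0.0634 with library totals and 0.0487, 0.0644 and 0.0487 with limma, TRIM56 at 0.0449, 0.0336, 0.0371 and 0.0336, and TRIM25 at -0.0026 with DESeq2's size factors and -0.0059 with DESeq2. Over the fits without 1 sample, TRIM21 went from -0.0527 to 0.101, TRIM24 from -0.0924 to 0.0417, TRIM25 from -0.0541 to 0.0695, TRIM27 from -0.0345 to 0.0838, TRIM56 from -0.128 to 0.103, TRIM2 from -0.105 to 0.334 and MID1 from -0.111 to 0.146. The cause of these changes was not tested. The standard errors of the tested members, between 0.0839 and 0.524, limit what could be called.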

Other observations

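TRIM73 and TRIM74, highly similar copies on chromosome 7 whose reads are not certain to be told apart, varied more among samples of a group than any other tested member in the vector group, with coefficients of variation of 68.4% and 50.1%. Their summed counts were 103, 252 and 115 with vector and 233, 108 and 142 with oeRNF112, so that vector replicate 2 and oeRNF112 replicate 1 stood together above the rest. The readthrough gene TRIM59-IFT80 had 14, 43 and 16 counts against 33, 16 and 25, with the same samples highest. Neither TRIM73, TRIM74 nor TRIM59-IFT80 was called. Across the tested members, the median coefficient of variation was 11.3% in vector and 6.42% in oeRNF112. Vector replicate 2 was the highest vector sample for 21 of the 42 tested members. This share and the median coefficients of variation were not computed over all genes tested. They are therefore not shown to be particular to the family. The antisense gene TRIM52-AS1 had 299, 271 and 350 counts against 283, 336 and 212 and was not called.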
